A study of Mus musculus with 4 samples.

Results

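The catalytic and regulatory subunits of the serine/threonine protein phosphatases were examined in the prefrontal cortex of female mice. They were taken as the probe sets (groups of short probes that read a transcript) whose single gene symbol in the platform annotation starts with Ppp1, Ppp2, Ppp4, Ppp5, Ppp6 or Ppm1, which gave 38 of 12422 probe sets and 31 of 8251 named genes. Of these, 15 probe sets of 11 genes read catalytic subunits and 23 probe sets of 20 genes read regulatory subunits. The control group was 2 pools of RNA from female FVB/N mice, and the transgenic group was 2 pools from female mice that overexpress the human synaptic form of acetylcholinesterase (AChE), which hydrolyses the transmitter acetylcholine. Each pool held RNA of 4 mice and was hybridised to 1 array. The labels do not give age, the strain background or promoter of the transgenic mice, or whether pools of one group came from separate animals. The p-values therefore reflect no more than the variation among these 4 arrays, part or all of which may be technical. Differences of strain or of batch cannot be told apart from the transgene.

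Serine/threonine phosphatases remove phosphate groups that protein kinases add. Protein phosphatase 1 (PP1) and 2A (PP2A) carry out much of this work in neurons, where they oppose protein kinase A and CaM kinase at synapses. Their few catalytic subunits are directed to substrates by many regulatory subunits: PP1 pairs with targeting or inhibitory partners, whereas PP2A assembles from a scaffold, a catalytic and an exchangeable B subunit. PP4, PP5 and PP6 are relatives of PP2A, and the PPM enzymes are a separate, metal-dependent family that acts without such subunits.

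The arrays of a group resembled each other more than arrays of different groups did, with r of 0.976 and 0.972 within groups and 0.912 to 0.918 between them, across probe sets. The ratio of 3' to 5' control probe sets of beta-actin was 1.90 and 1.73 in control against 2.49 and 1.67 in transgenic pools. For Gapdh it was 0.96 and 0.84 against 1.11 and 0.99. The part of these ratios in the results below was not tested. A probe set was tested when its mean over the arrays corresponded to an intensity above 49.4, and 31 of the 38 phosphatase probe sets passed this filter. The neuronal marker Snap25 lay far above the floor of 19.675 that was set before taking logarithms and read 9424.2 and 8868.3 in control against 6878 and 7243.5 in transgenic pools. Summed over 7 of 9 neuron genes found on the array, intensity was 22787 to 22914 in the control and 18653 to 20795 in the transgenic pools. Of 8 tested probe sets 1 (Snap25) fell. The others were not called and went both ways. Gad1 had a log2 change of 0.33, Nefl 0.28, Eno2 -0.24, Nefm -0.35 and Syt1 -0.47, and Stmn2 had -0.39 and -0.02 at its tested probe sets. The sum of 6 of 6 endothelial genes was 667.3 to 689.9 and 1003.4 to 1108.7, and 2 of 5 tested probe sets, both of Flt1, rose. At Flt1 98453_at both control pools (17 and 19.5) were under the floor, and it passed the filter through its transgenic values. The other tested genes were not called, with log2 changes of 0.56 for Cldn5, 0.17 for Cdh5 and -0.18 for Pecam1. Tek and Kdr missed the filter. For astrocytes (7 of 8 genes) the sums were 16605 to 17111 and 13566 to 14106, but the list went both ways. Of 10 tested probe sets both of Aqp4 rose (log2 changes 2.10 and 3.69), and those of S100b (-0.67) and Apoe (-0.40) fell. The Aqp4 control values lay under the filter (35.1 and 35.4, and 36.7 and 47.5), so both probe sets passed it through their transgenic values. For oligodendrocytes (6 of 7 genes) they were 4685.6 to 5821 and 4191 to 4682.5, with 1 of 10 tested probe sets lower (Mobp at 99047_at, -1.02). The other Mobp probe sets were not called (0.06, -0.65 and -0.85), and the uncalled probe sets of Mbp went both ways (0.23 and -0.28). For microglia (7 of 7 genes) the sums were 3202.9 to 3312.9 and 2672.6 to 2864.8, with 1 of 8 lower (Tyrobp, -0.95). The other tested microglia probe sets were not called. Csf1r had 0.23, and the rest lay below 0, from -0.13 for Ctss to -0.60 for C1qb at 96020_at. For smooth muscle (5 of 5 genes) they were 294.7 to 316.4 and 235.5 to 265.6, with 0 of 3 tested probe sets passing and 0 at an unadjusted p under 0.05. No marker was listed at 0. In bulk tissue, fewer cells of a type and less RNA per cell cannot be told apart, and the part of these shifts in the results below was not tested.

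Among the phosphatase genes, one PP2A targeting subunit and one PP1 catalytic subunit rose in the transgenic pools. Ppp2r5a, a B56 subunit that brings PP2A to its substrates, rose 1.78-fold, and Ppp1cb, the beta catalytic subunit of PP1, rose 1.64-fold. None of the tested phosphatase probe sets fell, though Ppp2r1b, described below, missed the intensity filter through low transgenic values. In counts, 2 of 31 rose and 0 fell at a limma adjusted p under 0.05. At an unadjusted p under 0.05 the counts were 4 higher and 0 lower. Of all tested probe sets 24.3% fell under that limit, 835 higher and 976 lower of 7453. Over all 7453 tested probe sets 10.0% passed (5.46% higher and 4.56% lower), so the share of phosphatase probe sets that passed lay near that of the array. Groups that did not overlap were about as frequent as over the array: 9 of 31 lay wholly higher and 7 wholly lower in the transgenic pools, against 23.8% and 29.9% (53.7% together) of all tested probe sets.

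**Figure D1:**
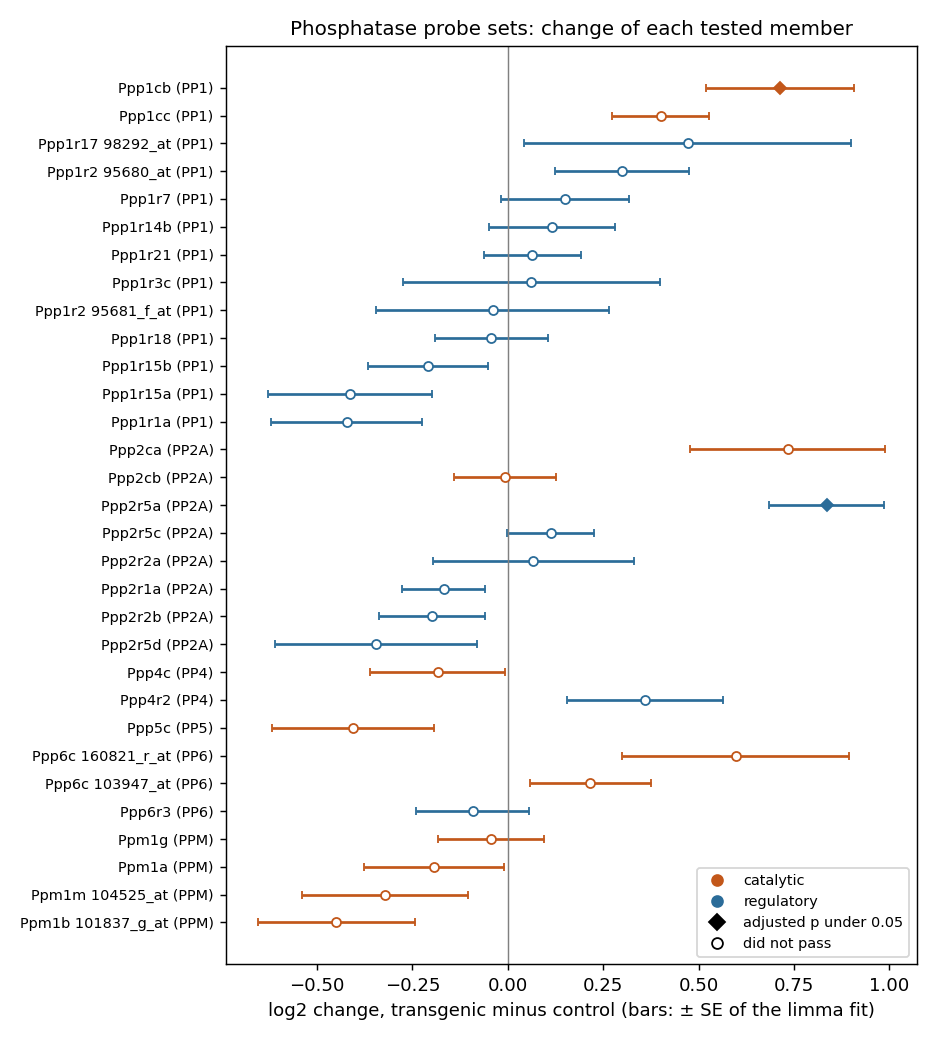
Log2 change (transgenic minus control, x axis) of each of the 31 tested phosphatase probe sets, with bars of 1 SE from the limma fit, in orange for catalytic and blue for regulatory subunits. Filled diamonds mark those that passed: Ppp1cb at 0.71 and Ppp2r5a at 0.84, while the open circles lie between -0.45 and 0.73.

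Ppp2r5a (probe set 93826_at, on chromosome 1) read 519.9 and 475 in control against 796.2 and 987.9 in transgenic pools. Both transgenic pools lay above both control pools, and the gap between the groups was wider than the spread within either. The log2 change was 0.84 ± 0.15 (SE; 95% interval 0.50 to 1.17, adjusted p = 0.00714). The call was lost without the intensity filter (adjusted p = 0.195), without the intensity trend (0.0598) and without transgenic replicate 2 (0.0745), with a range of 0.000263 to 0.195 over all alternatives.

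Ppp1cb (100088_at, chromosome 5), whose product is the catalytic core of myosin phosphatase, read 484.9 and 589.7 in control against 719.4 and 1068.8 in transgenic pools. The groups did not overlap, but the transgenic pools differed widely, with SDs of 74.1 in the control and 247 in the transgenic group. The log2 change was 0.71 ± 0.19 (95% interval 0.28 to 1.15), and the adjusted p of 0.0479 lay at the edge of the threshold. Without transgenic replicate 2 the change itself was smaller, 0.43 (adjusted p = 0.263). In the other settings that lost the call the change stayed between 0.70 and 0.71 and the adjusted p was 0.418 without the intensity filter, 0.167 without the intensity trend, 0.0647 with quantile normalization, 0.0618 with a floor at the 40th percentile and 0.0539 with a robust prior, within a range of 0.0025 to 0.418 over all alternatives.

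The promoters of these genes, which passed, and of Ppp2ca, the catalytic subunit with the largest change that did not pass, are shown as the 250 bases before the RefSeq start site on GRCm38.p6, since these genes had the 3 largest log2 changes among the tested phosphatase probe sets. Capitals mark matches on either strand to the GC box (GGGCGG), the CCAAT box (CCAAT), the TATA box (TATAAA) and the cAMP response element (TGACGTCA), which do not overlap one another here. Ppp2r5a lies on the minus strand at chr1:191397042-191397291, Ppp1cb on the plus strand at chr5:32458720-32458969 and Ppp2ca on the plus strand at chr11:52098574-52098823.
Ppp2r5a: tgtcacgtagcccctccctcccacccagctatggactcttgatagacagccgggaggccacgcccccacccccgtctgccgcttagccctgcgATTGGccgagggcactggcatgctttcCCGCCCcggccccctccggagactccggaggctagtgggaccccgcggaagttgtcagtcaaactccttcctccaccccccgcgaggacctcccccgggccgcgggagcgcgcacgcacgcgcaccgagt
Ppp1cb: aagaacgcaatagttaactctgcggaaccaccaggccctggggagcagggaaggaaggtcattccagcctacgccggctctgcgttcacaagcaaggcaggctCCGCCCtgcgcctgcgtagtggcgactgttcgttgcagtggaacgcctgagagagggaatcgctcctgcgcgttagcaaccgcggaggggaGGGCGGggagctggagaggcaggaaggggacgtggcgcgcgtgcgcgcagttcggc
Ppp2ca: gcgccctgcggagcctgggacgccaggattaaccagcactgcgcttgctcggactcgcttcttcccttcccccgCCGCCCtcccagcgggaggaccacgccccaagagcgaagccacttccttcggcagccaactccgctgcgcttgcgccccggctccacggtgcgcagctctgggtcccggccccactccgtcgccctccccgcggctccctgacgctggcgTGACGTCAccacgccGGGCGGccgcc
All 3 windows are rich in G and C (70.4%, 65.2% and 73.6%, against a median of 52.4% over all promoters of the table). The Ppp1cb and Ppp2ca windows each hold 2 GC boxes. That of Ppp2r5a holds 1 GC box and a CCAAT box, read on the other strand as ATTGG. Only the Ppp2ca window, of these 3, holds the cAMP response element, which starts 26 bases before the start site. A TATA box was found in none of the 3.

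Promoters were matched for 25 of the 31 phosphatase genes, with 34 start sites in all. Genes with several start sites count more than once, and the windows compared below were not matched for G and C content. A GC box stood in 26 of these 34 windows (76.5%), against 32.7% of the 32851 windows of the same length in the table. The full cAMP response element stood in 4 of them (11.8%, against 1.55%), those of Ppp2ca, Ppm1a, Ppp1r12c and Ppp1r15a. CCAAT boxes (35.3% against 33.8%) and TATA boxes (5.88% against 12.4%) complete the comparison, which describes letters in the sequence and not binding. The 4 genes with a cAMP response element did not share a direction: Ppp2ca had a log2 change of 0.73, Ppm1a -0.19 and Ppp1r15a -0.41, and Ppp1r12c lay under the floor on every array.

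Catalytic subunits of PP1 and PP2A were read for 4 genes. Ppp1cc, the gamma subunit of PP1, read 846.2 and 776.1 in control against 1025.1 and 1116.3 in transgenic pools. Its groups did not overlap and the pools of each group lay close together, but its log2 change of 0.40 ± 0.13 did not pass (adjusted p = 0.0834). Ppp2ca, the alpha subunit of PP2A, read 131.6 and 209.9 against 232.1 and 329. The groups did not overlap, though each pair of pools was far apart, and the change of 0.73 ± 0.26 did not pass (adjusted p = 0.109). Without control replicate 2 it was 1.07 (adjusted p = 0.00361), without control replicate 1 it was 0.40 (0.431) and without transgenic replicate 2 it was 0.48 (0.458). Its close relative Ppp2cb, the beta subunit, read 944.4 and 1132.2 against 1017.8 and 1039.6. These groups overlapped fully, and the change was -0.01 ± 0.13 (95% interval -0.31 to 0.29). Whether the changes of Ppp2ca and Ppp2cb differ was not tested.

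The catalytic subunits of PP4, PP5 and PP6 did not pass. Ppp4c read 296.7 and 374.5 in control against 315.7 and 272.8 in transgenic pools (log2 change -0.18 ± 0.18), with overlapping groups. Ppp5c, a single-chain enzyme that works with the chaperone Hsp90, read 214 and 318.6 against 189.2 and 205.3 (-0.41 ± 0.21, adjusted p = 0.284). Both transgenic pools of Ppp5c were lower than both control pools, but the control pools lay further apart than the groups did at their nearest. Ppp6c read 358.3 and 301.6 against 381.5 and 382.6 at 103947_at (0.22 ± 0.16), and its second probe set is described below. Control pool 2 read above control pool 1 at Ppp2ca, Ppp4c and Ppp5c and at the PP2A subunit Ppp2r5d (178.5 and 282.8), named here after their values were seen. Over all 31 tested phosphatase probe sets it was above at 13 and below at 18. The control pools also differed in markers of the striatum, the region beneath the cortex. The sum over 5 of 11 listed genes was 2258.8 to 4571.6 in the control and 3060.8 to 4533.2 in the transgenic pools. Most of the gap between the control pools lay in Penk at 94516_f_at (1779.1 and 3621.9), and the other tested probe sets also read higher in control pool 2. In the test of transgenic against control, which does not compare the control pools, 0 of 5 tested probe sets passed and 0 had an unadjusted p under 0.05. The part of this difference in the values of those 4 phosphatase genes was not tested.

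**Figure D2:**
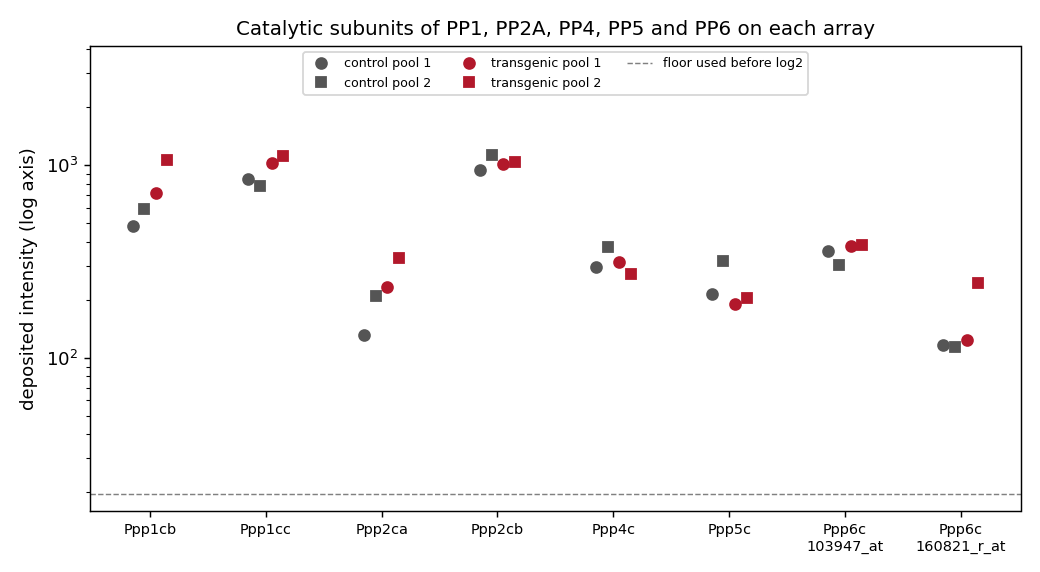
Deposited intensity (log axis) of the catalytic subunits of PP1, PP2A, PP4, PP5 and PP6 on each array, with control pools in grey, transgenic pools in red and the floor as a dashed line. The transgenic pools of Ppp1cb (719.4 and 1068.8), Ppp1cc and Ppp2ca lie above their control pools, while those of Ppp2cb and Ppp4c overlap with theirs.

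The PPM enzymes gave log2 changes below 0 at all 4 tested probe sets, and 0 of them passed (also 0 at an unadjusted p under 0.05). Over the array, 4039 of 7453 tested probe sets had changes below 0, and 10.0% passed. The PPM probe sets that missed the filter went the other way when it was taken away. Their changes were 0.66 at Ppm1b 101836_at, 0.05 at Ppm1b 101838_r_at and 0.21 at Ppm1m 161992_at. PPM genes of other names are described below. Ppm1a, which acts on stress kinases and Smad proteins, read 833.3 and 684.7 in control against 554.1 and 787.9 in transgenic pools (-0.19 ± 0.18). Its groups overlapped. Ppm1g, a nuclear enzyme linked to splicing, had overlapping groups, with 477.1 and 470.3 against 471.2 and 447.8 (-0.04 ± 0.14, 95% interval -0.36 to 0.27). Ppm1m read 122.9 and 129.3 against 105.6 and 96.4 at 104525_at (-0.32 ± 0.22, adjusted p = 0.418). Ppm1b, a relative of Ppm1a, read 399.1 and 419.3 against 241.3 and 372.2 at 101837_g_at (-0.45 ± 0.21, adjusted p = 0.22). For Ppm1m and Ppm1b the groups did not overlap.

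No tested partner of PP1 passed. Of 11 tested probe sets of 10 regulatory PP1 genes 0 passed with limma, and 0 had an unadjusted p under 0.05. Over all tested probe sets of the array these shares were 10.0% and 24.3%. The log2 changes ran from -0.42 to 0.47 with a median of 0.06. Among the inhibitors, Ppp1r1a (inhibitor-1, which blocks PP1 once protein kinase A has phosphorylated it) had -0.42 ± 0.20, with 207.8 and 169.5 in control against 144.5 and 135.7 in transgenic pools. Both transgenic pools of Ppp1r1a were lower, but its adjusted p was 0.228. Ppp1r14b, another phosphorylation-dependent inhibitor, had 0.12 ± 0.17. The subunits Ppp1r15a and Ppp1r15b, which bring PP1 to the translation factor eIF2 and so restore protein synthesis after stress, had -0.41 ± 0.21 and -0.21 ± 0.16, and each lay lower in both transgenic pools without passing. Ppp1r3c, which targets PP1 to glycogen, had 0.06 ± 0.34, Ppp1r7, a conserved partner of the nucleus and mitosis, 0.15 ± 0.17, the actin-associated Ppp1r18 -0.04 ± 0.15 and the endosomal Ppp1r21 0.06 ± 0.13.

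For PP2A the scaffold and B subunits other than Ppp2r5a did not pass. Ppp2r1a, the main scaffold, had -0.17 ± 0.11 (3927.9 and 3685.1 against 3582.3 and 3202.5). The other scaffold gene, Ppp2r1b, read 74.8 and 83.1 in control against 20 and 47.7 in transgenic pools, both lower. Its control values lay above the filter of 49.4 and its mean over the arrays just missed it through the transgenic values, so it was not tested. Without the filter its log2 change of -1.35, the largest in size of the 38 phosphatase probe sets, had an adjusted p of 0.444, and it was the one phosphatase probe set called lower in any alternative, without transgenic replicate 2 (log2 change -1.98, adjusted p = 0.0381). Of the B55 subunits, Ppp2r2a had 0.07 ± 0.26 and the brain-enriched Ppp2r2b -0.20 ± 0.14. Of the B56 family, Ppp2r5a rose, Ppp2r5c had 0.11 ± 0.11 (1816.4 and 2033.4 against 2048.2 and 2106.9) and Ppp2r5d -0.34 ± 0.26 (178.5 and 282.8 against 215.8 and 145.1). The regulators Ppp4r2 of PP4 (0.36 ± 0.20, adjusted p = 0.326) and Ppp6r3 of PP6 (-0.09 ± 0.15) did not pass.

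By class, 1 of 12 tested catalytic and 1 of 19 tested regulatory probe sets rose, beside 5.46% of all tested probe sets. Counts this small do not set the classes apart. The median log2 change was -0.03 for catalytic and 0.06 for regulatory subunits, beside -0.03 over all tested probe sets, and the sign of both medians changed with the setting. The median absolute log2 change was 0.36 for catalytic and 0.17 for regulatory subunits, against 0.23 over all tested probe sets, with median SEs of 0.19, 0.17 and 0.19. Catalytic subunits other than the PPM enzymes had 5 of 8 changes above 0 and a median of 0.31, and the 4 tested PPM probe sets a median of -0.26. These values describe the probe sets and were not tested as sets.

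**Figure D3:**
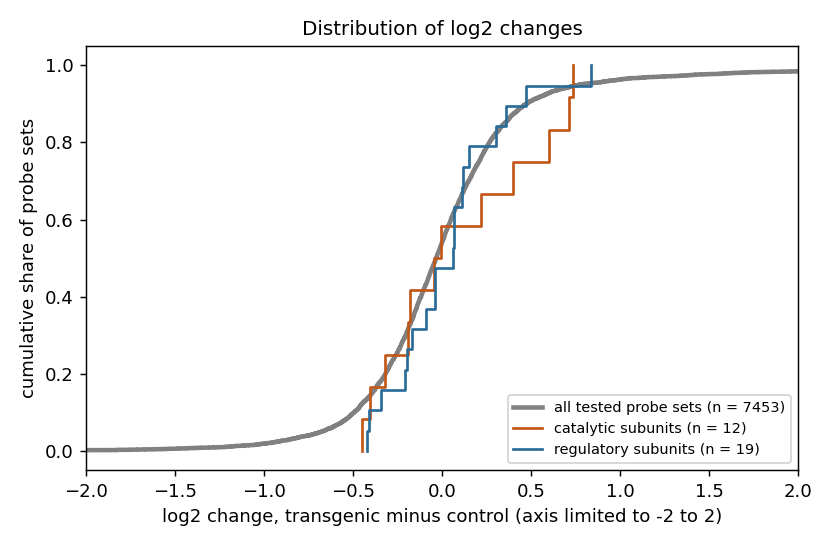
Cumulative share (y axis) of log2 changes, transgenic minus control (x axis, limited to -2 to 2), for all 7453 tested probe sets in grey, 12 catalytic in orange and 19 regulatory in blue. The regulatory curve follows the grey one closely, while the upper part of the catalytic curve lies to its right, through Ppp1cb, Ppp2ca, Ppp1cc and Ppp6c.

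For 6 genes more than 1 probe set was present, and in 3 of these just 1 probe set passed the intensity filter. The test of whether a pair of probe sets of the same gene gave different log2 changes could be made for 2 pairs, and 0 of them passed (limma, also 0 at an unadjusted p under 0.05), against 11.5% of 1213 pairs of the whole array. Ppp6c read 116.2 and 113.2 in control against 123.6 and 243.7 in transgenic pools at 160821_r_at. Here transgenic pool 2 alone stood apart, and the log2 change of 0.60 ± 0.30 (adjusted p = 0.259) was 0.11 without it and 1.09 without transgenic replicate 1 (adjusted p = 0.0441). The difference from 103947_at was -0.38 ± 0.34 (first minus second, 95% interval -1.13 to 0.37). Ppp1r2, or inhibitor-2, which is controlled by the kinase Gsk3, read 167.7 and 165.9 against 200 and 210.7 at 95680_at and 66 and 102.1 against 70.1 and 91 at 95681_f_at. The first lay higher in both transgenic pools (0.30 ± 0.18) and the second overlapped (-0.04 ± 0.31), and their difference was 0.34 ± 0.34 (95% interval -0.42 to 1.09). Both intervals are wide enough to hold a difference as large as the changes themselves.

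The other multiple probe sets lay mostly near the floor. Ppp1r17, an inhibitor that protein kinase G activates and that is known from Purkinje cells of the cerebellum, read 64 and 30.6 in control against 75.3 and 50 in transgenic pools at 98292_at (0.47 ± 0.43), and 7.4 and 5.6 against 31.3 and 13.6 at 98293_g_at, where 3 of 4 arrays were under the floor. Ppp1r12c, a myosin phosphatase targeting subunit, read at most 3.1 at 161521_at and at most 11.7 at 92238_at, so neither probe set gave a level above the floor on any array. At Ppm1b, 101836_at read 23.4 and 19.3 against 35.4 and 32.3 and 101838_r_at read 24.7 and 55 against 29.1 and 50. The first of these was higher in both transgenic pools while 101837_g_at was lower in both. With the filter taken away their difference was 1.11 ± 0.36 (adjusted p = 0.324), and 0 of 8 phosphatase pairs passed in that setting. Ppm1m read 19.8 and 28.7 against 26.5 and 28.6 at 161992_at, with overlapping groups.

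**Figure D4:**
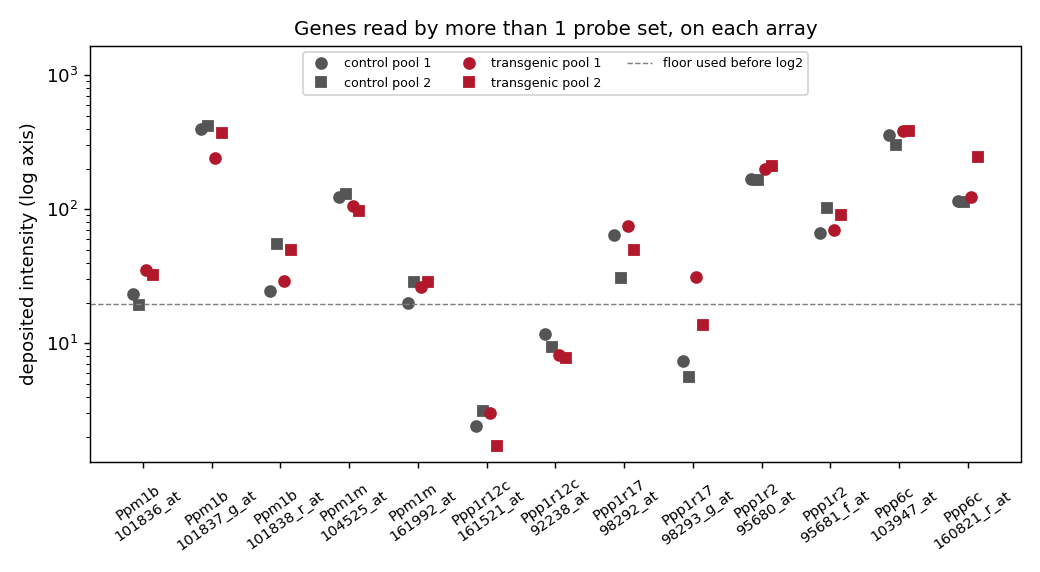
Deposited intensity (log axis) of the 13 probe sets of the 6 phosphatase genes read more than once, on each array, with control pools in grey, transgenic pools in red and the floor of 19.675 as a dashed line. Both Ppp1r12c probe sets lie under the floor, and at Ppp6c 160821_r_at transgenic pool 2 (243.7) stands above the other arrays.

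Genes of the same pathway under other names held further calls, whose counts are to be read beside the 10.0% of all tested probe sets that passed; those of the first 2 lists lay near that share. Calcineurin, the calcium-activated phosphatase that acts upstream of PP1 through inhibitor-1, had a risen catalytic subunit: Ppp3ca read 1076.3 and 1293.9 in control against 2870.5 and 3106.6 in transgenic pools, a 2.53-fold rise (1.34 ± 0.13, adjusted p = 0.000109). Ppp3ca was the one call among 8 tested probe sets of calcineurin genes and their regulators (1 higher, 0 lower, median 0.05). The other catalytic subunits had 0.08 ± 0.22 (Ppp3cb) and 0.09 ± 0.21 (Ppp3cc). The regulatory subunit Ppp3r1 lay lower in both transgenic pools without passing (-0.29 ± 0.11, adjusted p = 0.125). Of 19 tested probe sets of PP2A, PP4 and PP6 partners 2 rose and 0 fell (median -0.06 over 13 genes). Set, an inhibitor of PP2A, rose at 94456_at (231.7 and 285.5 against 797 and 812.6, 1.65 ± 0.16) but not at 98550_at (0.04 ± 0.15), and the difference between these probe sets passed (1.60 ± 0.23, adjusted p = 0.00093). Anp32a, a related inhibitor, rose by 0.45 ± 0.12 at 104390_at (adjusted p = 0.0481) and had -0.07 ± 0.16 at 93372_at, a difference that did not pass (0.52 ± 0.23, adjusted p = 0.2).

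Pptc7, a mitochondrial PPM enzyme, rose 1.96-fold (577.7 and 744.2 against 1507.6 and 1094, 0.97 ± 0.18, adjusted p = 0.00875), 1 of 2 tested among the PPM genes of other names. Of 7 tested probe sets of PP1 partners of other names 0 passed, with 1 at an unadjusted p under 0.05 and a median of -0.07 over 5 genes. Another list held kinases that phosphorylate PP1 inhibitors, with regulatory subunits of these kinases. Among its 16 tested probe sets 1 rose and 3 fell (median -0.23 over 10 genes), beside 10.0% called over the array, and 11 had an unadjusted p under 0.05, beside 24.3%. At the brightest probe set of each gene, 0 genes rose and 0 fell. Prkar1b, a regulatory subunit of protein kinase A, fell by 0.996 ± 0.143 at 101927_at (adjusted p = 0.00173) and had -0.36 ± 0.10 at 94944_at, and these differed (-0.63 ± 0.18, adjusted p = 0.0431). The casein kinase gene Csnk2a1 fell at 104545_at and 104546_g_at (-1.32 ± 0.22 and -1.49 ± 0.26) and not at its other 2 probe sets, and each of the 4 differences between a fallen and an uncalled probe set passed (adjusted p at most 0.00488). Csnk2a2 rose at least 10.6-fold at 94483_at (7.2 and 11.4 in control against 203.1 and 214.1 in transgenic pools), a lower bound because both control pools were under the floor, and the probe set passed the filter through its transgenic values. Its other probe sets were not called, with -0.42 ± 0.18 at 94482_at and 0.54 ± 0.19 at 98245_at, and all 3 differences between the probe sets of this gene passed (adjusted p at most 0.0416).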

How the data were processed

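For every probe set, the deposited table gives an intensity on each array, on what the values show to be a linear scale. Per the deposited intensity values, the authors had scaled the arrays to a common level (mean between the 2nd and 98th percentiles 249.5 to 249.6). The sources used here do not say how the authors derived each value. The 66 control probe sets of 12488 were left out. Genes were named by the platform annotation, and symbols were updated through the RefSeq gene table of GRCm38.p6, which changed 0 of the phosphatase symbols. A probe set listed under Ppp2r3c and another gene was left out by the rule.

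Intensities were floored at their 25th percentile (19.675), log2-transformed and filtered at the 40th percentile of the mean log2 value. Groups were compared with limma (version 3.58.1, R version 4.3.3) by a two-sided moderated test whose prior variance follows intensity (2 residual and 7.51 prior degrees of freedom), with Benjamini-Hochberg adjustment over all 7453 tested probe sets and a threshold of 0.05. Pairs of probe sets of 1 gene were compared by the same model on their difference in each array, adjusted over 1213 pairs. Errors beside log2 changes are SEs of the fit. The number of arrays limits the precision. Both models were run on simulated data with noise drawn independently for each array. Such data cannot show whether the p-values hold for pools that share animals. The phosphatase genes and all lists were chosen with earlier results of these data known. Values on each array are given for every probe set that passed, every catalytic subunit and every gene with more than 1 probe set, and of the other lists at most the 3 genes of smallest p that passed. Medians of the other lists take the brightest tested probe set of each gene. The alternatives were a floor at the 40th percentile, no filter or one at the 60th percentile, median scaling, quantile normalization, no trend, a robust prior, the replicate number as a block, and each array left out. Promoters are from RefSeq (GRCm38.p6).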

Additional observations from a re-analysis of the deposited data

How the results depend on the processing

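Of 363 values of the 31 tested phosphatase probe sets under 12 alternatives, 351 kept their side of the threshold, 9 lost the call (of Ppp1cb or Ppp2r5a), 3 gained one (Ppp2ca or Ppp6c) and 0 reversed a call. The count of phosphatase probe sets that passed, 2 and both higher, was 1 with a floor at the 40th percentile, with quantile normalization and with a robust prior (Ppp2r5a each time), 0 without the intensity trend and 0 without the filter, where 48 of 12422 passed on the whole array. With each array left out in turn it ran from 1 to 3, with 0 to 3 higher and 0 to 1 lower; a lone array of a group is then assumed to vary like the others. Without transgenic replicate 1 or 2, 432 and 389 probe sets passed over the array, against 747. The replicate number as a block gave 3 calls (Ppp2ca added, adjusted p = 0.0235) and 892 over the array, but same-numbered pools hardly deviated together (r = 0.0555 across probe sets), and nothing in the labels pairs them. The catalytic median of -0.0259 was 0.0495 without the filter and -0.0427 to 0.0384 with an array left out. The regulatory median of 0.0616 was -0.0147 with a floor at the 40th percentile, 0 without the filter, -0.0672 with a filter at the 60th percentile, -0.0032 with quantile normalization and -0.0332 to 0.0124 with an array left out, where probe sets also entered or left the test. The pair test of phosphatase genes gave 0 calls in each alternative in which it could be run; with a filter at the 60th percentile no such pair was left. The causes of these shifts were not tested.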
